A study of Mus musculus and Homo sapiens with 20 samples.

Results

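Pax genes encode transcription factors that share a DNA-binding paired domain, and 8 of them (Pax1, Pax2, Pax3, Pax4, Pax6, Pax7, Pax8 and Pax9) were followed here through the peak lists of 2 Polycomb histone marks. The members were taken by gene symbol from the GENCODE annotation, as 8 of 20807 autosomal protein-coding genes in the mouse genome (mm10) and as their 8 upper-case counterparts among 19111 in the human genome (hg38). Pax5 was not analysed here. The data were CUT&Tag peak lists, that is, genomic intervals in which a transposase guided by an antibody had cut more often than expected, for H2AK119ub, a single ubiquitin on histone H2A, and for H3K27me3, a trimethylated lysine in the tail of histone H3. The 20 libraries formed 10 groups of 2.

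Mouse embryonic stem (mES) cells gave lists of both marks, as a wild-type (WT) line and a Tet2-/- knockout (KO) line that were gifts of another laboratory and were grown with LIF, CHIR99021 and PD0325901. So did haematopoietic stem and progenitor cells (HSPCs), taken as lineage-negative, c-Kit-positive (LK) bone marrow cells from C57BL/6 WT mice and Tet2-/- (KO) mice aged 6 to 8 weeks. The LK gate holds progenitors of several blood lineages besides stem cells. The human leukaemia line K562 gave lists of H2AK119ub only, after nucleofection with a control siRNA (siControl) or with an siRNA against MBD6 (siMBD6), a methyl-CpG-binding-domain protein. TET2 is an enzyme that oxidizes 5-methylcytosine, and the question behind these groups was whether its loss, or depletion of MBD6, altered the placement of the marks.

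Polycomb repressive complex 1 places H2AK119ub and Polycomb repressive complex 2 places H3K27me3, and both marks lie over developmental genes that a cell keeps silent. Pax genes are classical examples of such targets, since each is used by a few embryonic lineages and is silent elsewhere. The family falls into subfamilies by protein structure. Pax1 and Pax9 act in the sclerotome and the pharyngeal pouches, Pax2 and Pax8 in the kidney and, for Pax8, the thyroid, Pax3 and Pax7 in the neural crest and skeletal muscle precursors, and Pax4 and Pax6 in the pancreatic islet and, for Pax6, the eye and brain. None of these tissues is among the cells profiled.

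For each library, 3 quantities were read from the list. The span percentage is the share of a gene's annotated length under peaks. The promoter percentage is the share under peaks of the window reaching 1 kb to either side of the gene start. The domain width is the length of the widest run of peaks, joined across gaps of at most 2 kb, that met the gene or the 1 kb to either side of it. In the mouse genome Pax1 lies at chr2:147361925-147393295 and Pax9 at chr12:56691767-56712822, both on the plus strand. Pax2 lies at chr19:44756045-44837871 on the plus strand and Pax8 at chr2:24420560-24475599 on the minus strand. Pax3 (chr1:78101267-78197134) and Pax7 (chr4:139737062-139833528) lie on the minus strand, as does Pax4 (chr6:28442334-28449353), the shortest member, whereas Pax6 (chr2:105668900-105697364) lies on the plus strand. Together the 8 spans measure 417 kb in mouse and 450.3 kb in human.

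The lists held 85121 to 167378 peaks and covered 131 to 259 Mb of autosomes. They hold positions only, so read depth is unknown, and a longer list cannot be told apart from a deeper library. Across all autosomal protein-coding spans, the share under peaks was 13.6% to 14.6% for H2AK119ub and 7.78% to 11.2% for H3K27me3 in mES cells, 8.99% to 10.95% and 8.22% to 8.86% in HSPCs, and 6.37% to 8.90% for H2AK119ub in K562 cells. The KO replicate 2 list for H3K27me3 in mES cells and the WT replicate 2 list for H2AK119ub in HSPCs were the shortest of their sets, and the joint values that they enter are given with and without them. Among promoters of genes active in the labelled cells, H3K27me3 touched 1 or 2 of 5 in mES cells (Esrrb in all 4 libraries, and Pou5f1, Nanog and Tdgf1 in none) and 4 or 5 of 6 in HSPCs, where Gata2 was fully covered in all 4 libraries and Ptprc was at 0 in all 4. H2AK119ub touched 5 of 5 such promoters in mES cells, 5 of 6 in HSPCs and 3 or 4 of 5 in K562 cells. That these genes are active was assumed and not measured here. Of all autosomal protein-coding promoters, mES libraries of H3K27me3 touched between 37.6% and 50.9%, and HSPC libraries between 60.5% and 62.7%. H2AK119ub touched between 69.2% and 70.3% (mES), 65.6% and 72.7% (HSPC), or 34.7% and 43.1% (K562). The counts on these few genes were not tested against those shares.

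Promoter sequences are shown for the 3 members whose RefSeq start (GRCm38.p6) lay nearest to the GENCODE start, at it or within 1 kb upstream. Each is the 250 bases that end just before the RefSeq start, written 5′ to 3′ on the strand of the gene, with every CpG dinucleotide in capitals. They are the windows chr19:44755502-44755751 (plus strand) for Pax2, chr2:105668646-105668895 (plus strand) for Pax6 and chr2:24475600-24475849 (minus strand) for Pax8.
Pax2 promoter: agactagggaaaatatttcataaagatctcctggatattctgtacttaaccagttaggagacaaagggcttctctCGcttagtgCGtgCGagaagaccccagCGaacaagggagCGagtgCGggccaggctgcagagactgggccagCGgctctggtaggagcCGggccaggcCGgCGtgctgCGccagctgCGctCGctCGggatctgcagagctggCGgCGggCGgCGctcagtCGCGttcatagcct
Pax6 promoter: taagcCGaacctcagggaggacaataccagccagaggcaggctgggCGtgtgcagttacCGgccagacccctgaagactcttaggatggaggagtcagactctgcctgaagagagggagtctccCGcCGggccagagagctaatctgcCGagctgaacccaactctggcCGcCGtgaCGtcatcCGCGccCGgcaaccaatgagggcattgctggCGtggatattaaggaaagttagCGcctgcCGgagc
Pax8 promoter: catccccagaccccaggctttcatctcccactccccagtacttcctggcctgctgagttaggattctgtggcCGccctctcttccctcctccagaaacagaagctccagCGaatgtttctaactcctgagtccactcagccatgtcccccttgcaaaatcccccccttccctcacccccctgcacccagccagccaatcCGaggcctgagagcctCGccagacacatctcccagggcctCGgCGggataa
The Pax2 window holds 20 CpGs, the Pax6 window 15 and the Pax8 window 6, against a median of 6 over the 32851 windows of the same length in the RefSeq table, of which 92.1% hold at least 1 CG (the letters searched, the same on both strands). All 250 bases of each window lay under peaks in all 8 mouse libraries of H2AK119ub and all 8 of H3K27me3. The same held for the RefSeq window of Pax9 and for the further windows of Pax2 and Pax6, which are not shown. At Pax7, whose RefSeq start lies 560 bases inside the GENCODE span, the matching 250 bases were wholly under H3K27me3 in all 8 libraries of that mark and wholly under H2AK119ub in the 4 mES libraries, but H2AK119ub reached at most 1.2% of them in HSPCs and none in 3 of the 4 HSPC libraries.

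H3K27me3 covered the whole promoter window of all 8 members in all 8 mouse libraries of that mark. Over all autosomal protein-coding genes, 13.3% to 20.5% of promoters were fully covered in mES cells and 16.9% to 18.3% in HSPCs. By span percentage, every member stood at the 83.0 percentile of all genes or above in each H3K27me3 library, up to 97.9 for Pax4 in mES cells and for Pax2 in HSPCs. H2AK119ub gave more varied ranks, from the 60.1 to the 91.3 percentile in mES cells and from 35.4 to 89.9 in HSPCs. The promoters were thus alike in H3K27me3 cover, whereas the marked share of the gene behind them differed between members.

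In mES cells the sclerotome genes were marked over part of their length. H2AK119ub covered 38.4% and 33.7% of Pax1 in the WT libraries and 44.2% and 33.8% in the KO libraries. Pax9 stood at 36.4% and 37.1% in WT and 39.7% and 40.1% in KO. All 8 values lay between 33.7% and 44.2%. H3K27me3 covered 53.5% and 54.1% (WT) and 53.7% and 50.3% (KO) of Pax1. For Pax9 the values were 52.1% and 55.4% in WT and 57.4% and 48.2% in KO. In every mES library H3K27me3 reached further along both genes than H2AK119ub did in any.

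Pax2 and Pax8 differed from each other. Pax2 carried H2AK119ub over 70.9% and 72.3% of its span in WT and 65.6% and 63.3% in KO. Its H3K27me3 covered 77.0% and 84.5% in WT against 70.6% and 54.4% in KO. The WT libraries held H2AK119ub on 32.5% and 29.2% of Pax8, against 32.4% and 34.0% for KO. H3K27me3 covered 40.3% and 54.0% of it in WT against 55.2% and 38.6% in KO. In every mES library Pax8 was covered less than Pax2. The most and the least covered libraries of Pax2 for each mark were a WT and a KO library, respectively, whereas for Pax8 the genotypes were intermixed for H3K27me3.

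The neural crest and muscle genes Pax3 and Pax7 are of nearly equal length but were marked to very different extents. H2AK119ub covered 18.8% and 20.2% of Pax3 in WT and 18.7% and 17.0% in KO, below every other member. Pax7 stood at 88.0% and 87.1% in WT, with KO values of 86.7% and 86.4%, above every other member except for Pax4 in KO replicate 1. H3K27me3 covered 52.9% and 64.0% of Pax3 in WT against 42.7% and 29.0% in KO, without overlap. On Pax7 it covered 72.01% and 82.0% in WT and 72.6% and 59.0% in KO, with overlap. Pax7 was the only member with more of its span under H2AK119ub than under H3K27me3 in all mES libraries.

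The islet genes Pax4 and Pax6 were covered over most of their length. H3K27me3 lay over all of Pax4 in one WT library, 99.97% of it in the other, and 99.3% and 91.4% in KO. Its H2AK119ub was lower and more variable, at 71.7% and 56.1% in WT and 89.1% and 76.2% in KO. On Pax6 H2AK119ub covered 80.3% and 80.7% in WT and 81.3% and 85.7% in KO. For the same gene H3K27me3 stood at 80.8% and 85.6% in WT and 82.6% and 78.1% in KO. Pax6 is the member on which the extents of both marks in mES cells were closest, with means of 82.0% and 81.8%.

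**Figure D1:**
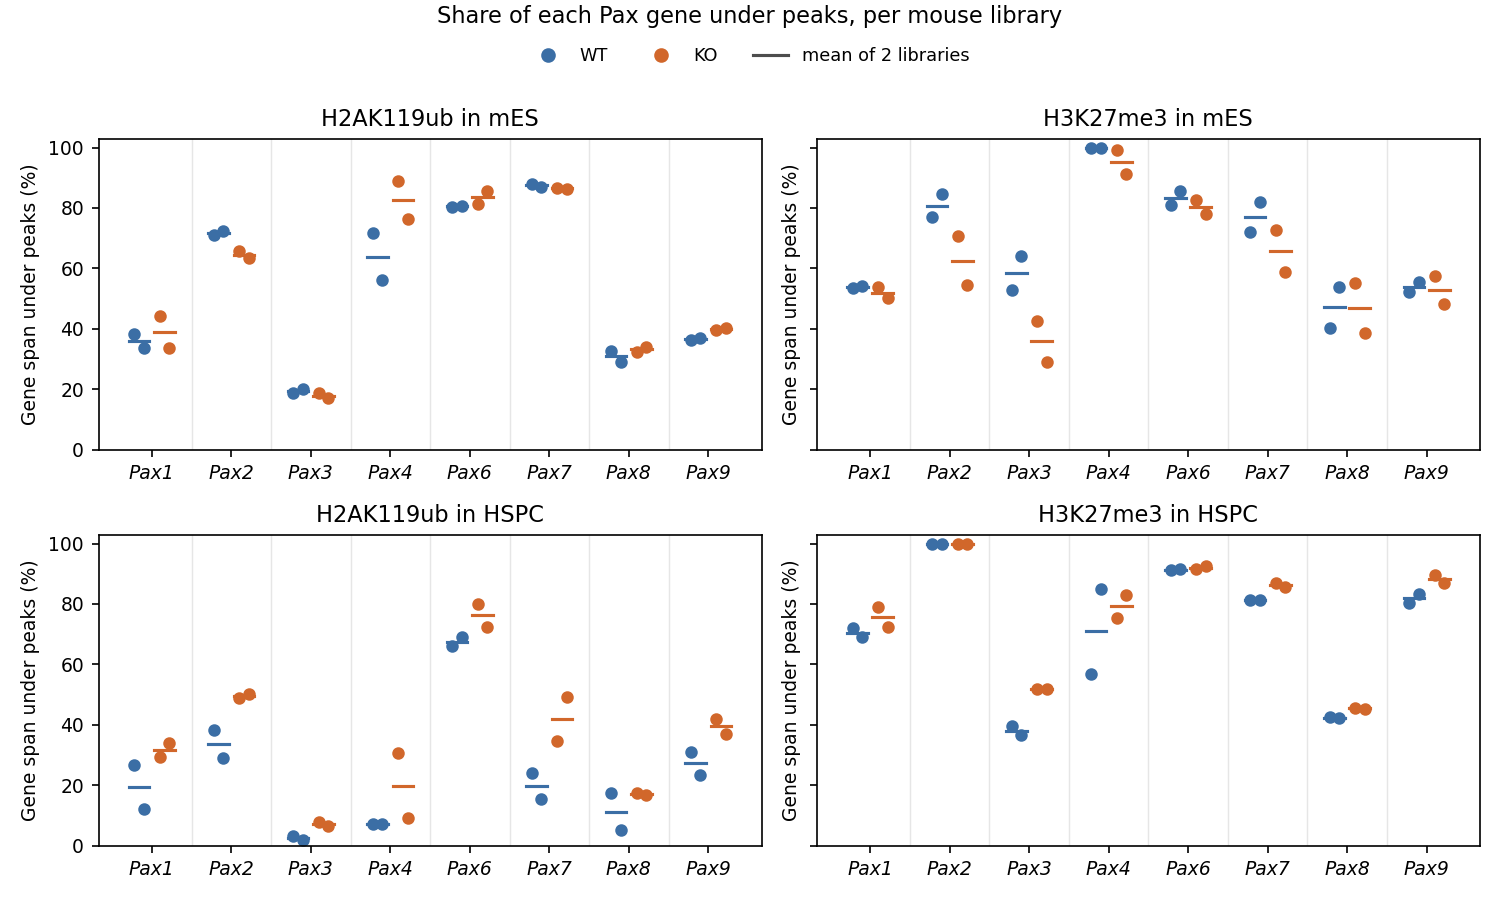
Percent of each gene's span under peaks (y axis) for the 8 Pax genes (x axis) in 2 WT and 2 KO libraries per panel, with panels for each mark and cell type; points are libraries and short lines are means of 2. H3K27me3 in HSPCs is at 100% on Pax2 in all 4 libraries and lowest on Pax3 and Pax8. H2AK119ub in HSPCs is low for Pax3, Pax4 and Pax8 and high for Pax6.

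In HSPCs, H2AK119ub covered less of the Pax genes than in mES cells. The joint span percentage, which is the share of the summed length of all 8 genes, was 27.04% ± 7.77 (SD, n = 4) in HSPCs and 53.6% ± 0.768 (SD, n = 4) in mES cells, while the share over all protein-coding spans was 10.3% and 14.2%. Without WT replicate 2 of the HSPCs the difference of -26.5 points was -23.3. The libraries of the cell types did not overlap for 6 of 8 members, all lower in HSPCs. Over all genes 21.6% were lower and 21.8% higher without overlap. For Pax7 the mean difference was -56.1 percentage points, for Pax4 -59.7, for Pax2 -26.4, for Pax8 -17.8, for Pax3 -13.8 and for Pax6 -10.1. Pax1 and Pax9 overlapped between the cell types, with differences of -12.0 and -4.96 points. The median difference over the members was -15.8 points and that over all genes 0. The exact permutation test within genotype, two-sided, gave p = 0.0556 for each of the 6 separated genes, the smallest it can give, and an adjusted p of 0.117 over all genes, so none passed the threshold of 0.05. limma, a linear model fitted here on arcsine square roots of the covered shares of all genes, called the same 6 members lower (adjusted p from 0.000476 for Pax7 to 0.0385 for Pax6) and none higher, where 26.3% of genes tested were called lower and 27.5% higher. Dividing by the share over all spans turned the Pax6 difference to 14.6 points, so its direction depended on the scale.

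The mark was retained to very different extents. On Pax6, H2AK119ub covered 66.2% and 68.9% in WT HSPCs and 80.0% and 72.5% in KO HSPCs, the highest of the family. Pax2 stood at 38.3% and 29.2% in WT and 48.8% and 50.4% in KO, and its promoter was fully covered in all 4 libraries. Pax7, which in mES cells was covered over more than 86%, stood at 24.2% and 15.5% in WT and 34.6% and 49.4% in KO. Pax3 kept little, with 3.12% and 1.98% in WT and 7.69% and 6.55% in KO. Pax4 stood at 7.14% and 7.14% in WT, a single peak of 0.501 kb on the gene in each library, and 30.6% and 9.22% in KO. Pax9 stood at 31.1% and 23.3% in WT against 41.95% and 37.0% in KO. Pax1 stood at 26.6% and 12.1% in WT against 29.4% and 34.0% in KO. In both WT HSPC libraries, the order of the 3 most covered members was Pax6, Pax2 and Pax9.

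The H2AK119ub seen in HSPCs lay mostly where mES cells had it. In WT, bases under H2AK119ub in both HSPC replicates were also under it in both mES replicates for 83.2% of the bases on Pax8, 95.1% on Pax3, 98.2% on Pax6, 99.7% on Pax2 and all of them on Pax1, Pax7 and Pax9. H2AK119ub in both WT mES replicates covered 21.4% of the span of Pax8, 15.2% of Pax3, 79.9% of Pax6, 66.0% of Pax2, 33.3% of Pax1, 84.2% of Pax7 and 34.0% of Pax9. Pax4 had no base under H2AK119ub in both WT HSPC replicates. Read the other way, the HSPC libraries held 73.3% of the bases marked in mES cells on Pax6, 54.8% on Pax9 and 12.1% on Pax7. A list that is shorter over all genes also gives a smaller share in this direction.

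H3K27me3 followed another order. The joint span percentage was 72.4% ± 3.24 (SD, n = 4) in HSPCs and 61.5% ± 9.33 (SD, n = 4) in mES cells, and the 2 sets overlapped, while over all spans it was 8.46% and 9.77%. Without the short KO replicate 2 list of mES cells the joint difference was 6.81 in place of 10.9 percentage points. In HSPCs 4 of 8 members were higher without overlap and 1 was lower, against 28.1% of genes higher and 18.2% lower. Pax2 was covered end to end in all 4 HSPC libraries, for a mean difference of 28.4 points from mES cells. Pax9 stood at 80.4% and 83.5% in WT HSPCs and 89.7% and 87.0% in KO HSPCs, a difference of 31.9 points from mES cells. Pax1 stood at 72.1% and 69.0% in WT and 79.0% and 72.5% in KO, and Pax6 at 91.3% and 91.5% in WT against 91.6% and 92.4% in KO. Both were above every mES library.

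Pax4 was the member that was lower in HSPCs, with 56.8% and 85.1% in WT and 75.4% and 83.1% in KO, a difference of -22.6 points. Pax3 (39.5% and 36.7% in WT, 51.8% and 51.9% in KO), Pax7 (81.2% and 81.4% in WT, 86.9% and 85.5% in KO) and Pax8 (42.4% and 42.2% in WT, 45.6% and 45.3% in KO) overlapped between the cell types. The median difference over the members was 11.1 points and that over all genes 0.0730. On Pax3 the cell types marked partly different stretches. Of its bases under H3K27me3 in both WT mES replicates, 45.5% were also marked in both WT HSPC replicates, which covered 32.6% of the span. On Pax4 and Pax8 this share was 56.8% and 61.8%, beside HSPC cover of 56.8% and 38.1% of the span. On Pax6 and Pax9 all such bases were shared, beside HSPC cover of 90.7% and 78.4%. The exact permutation test again reached its smallest p of 0.0556 for the 5 separated genes (adjusted p = 0.112). limma called the same 4 members higher (adjusted p from 0.000321 for Pax9 to 0.00789 for Pax6) and Pax4 lower (adjusted p = 0.0107), against 38.9% and 24.6% of the genes tested. The mES cells were cultured lines and the HSPCs came from mice, so cell type and source cannot be told apart.

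Comparing the marks within mES cells, 5 of 8 members had less of their span under H2AK119ub than under H3K27me3 without overlap (Pax1, Pax3, Pax4, Pax8 and Pax9) and 1 had more (Pax7). The all-gene figures were 7.42% lower and 40.3% higher, and most genes that separated did so in the other direction. The difference was -28.5 points on Pax3, -24.4 on Pax4, between -15.4 and -15.0 on Pax1, Pax8 and Pax9, and 15.7 on Pax7. For the family as a whole the difference of the joint values was -7.92 points with overlapping libraries, -12.0 without KO replicate 2 of H3K27me3 and -4.49 without WT replicate 2. In HSPCs all 8 members had less under H2AK119ub without overlap, against 13.8% of genes lower and 43% higher, with differences from -19.8 points on Pax6 to -61.5 on Pax4. The joint difference of -45.4 points was -42.2 without WT replicate 2 of H2AK119ub. The members' median difference was -15.0 points in mES cells and -49.7 in HSPCs, and that of all genes 1.42 and 2.05. The exact test gave p = 0.0556, its smallest, for each separated gene (adjusted p = 0.108 in mES cells and 0.0932 in HSPCs). limma called 5 members lower and 1 higher in mES cells, against 10.3% and 52.7% of the genes tested, and 8 lower in HSPCs, against 17.4% lower and 54.8% higher. After division by the share over all spans the Pax7 difference in mES cells was -14.2 points, the opposite direction. The marks come from different antibodies, and antibody and mark cannot be told apart in these lists.

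On the members that H3K27me3 covered in part, most H2AK119ub bases were also under H3K27me3. In WT HSPCs, bases under H2AK119ub in both replicates lay under H3K27me3 in both replicates for 100% of them on Pax1, Pax3, Pax6 and Pax9, while H3K27me3 in both replicates covered 67.8%, 32.6%, 90.7% and 78.4% of these spans. The shared part was 95.1% on Pax7, whose span was 78.2% under H3K27me3, and 85.2% on Pax8, whose span was 38.1% under it. On Pax2 the shared part could only be 100%, because H3K27me3 covered the whole gene. The reverse share was 65.7% on Pax6 and 23.7% on Pax9, and 3.03% on Pax3. In WT mES cells the shared part was 100% on Pax1 and Pax9, of whose spans H3K27me3 covered 53.5% and 51.0%, and 88.0% on Pax3, of whose span it covered 49.3%. On Pax2 and Pax6 it was 95.4% and 92.4%, beside 76.2% and 79.6% of the span. On Pax7 and Pax8 it was 77.0% and 76.6%, beside 70.3% and 37.9% of the span. On Pax4 it was again fixed by nearly complete H3K27me3 cover. Pax7 H2AK119ub in mES cells extended past H3K27me3, which was itself 92.2% covered by H2AK119ub.

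Domain width set Pax2 and Pax7 apart. In HSPCs the H3K27me3 domain on Pax2 was 227 kb and 281 kb wide in WT and 283 kb and 277 kb in KO. In mES cells it was 71.4 kb and 58.8 kb in WT and 55.9 kb and 57.4 kb in KO. The HSPC domain began 126 to 182 kb upstream of the gene start and ended 98.8 to 102 kb downstream of it, past the end of the gene. In the first WT mES library the widest domain on Pax2 lay within and beyond the gene body and did not reach the start. No other protein-coding gene lay whole inside a domain of any member in any of the 20 libraries.

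H3K27me3 domains in HSPCs were wider than in mES cells without overlap on 4 of 8 members and narrower on 1, against 29.6% of all genes wider and 17.5% narrower. On Pax7 they measured 119.1 kb and 130.0 kb in WT HSPCs and 142 kb and 132 kb in KO HSPCs. In mES cells the Pax7 values were 64.7 kb and 104 kb in WT and 110.4 kb and 59.1 kb in KO, all below those of HSPCs. For H2AK119ub the order on Pax7 was reversed, with 109 kb and 126 kb in WT mES cells and 120.4 kb and 128 kb in KO mES cells. In HSPCs its H2AK119ub domain was 16.7 kb and 10.8 kb wide in WT and 9.55 kb and 31.2 kb in KO. The run of 9.55 kb lay just outside the gene, beginning 0.347 kb upstream of its start. Domains of H2AK119ub were narrower in HSPCs without overlap on 5 of 8 members and wider on none, where 16.5% of all genes had narrower and 20.8% wider domains.

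The cell types differed less in H2AK119ub width on Pax6, Pax2 and Pax9 than on Pax7. The ratios of HSPC to mES means were 0.905, 0.821, 0.756 and 0.141, in this order. On Pax3, Pax1, Pax8 and Pax4 the ratios were 0.719, 0.502, 0.355 and 0.136, so that of Pax4 was as low as that of Pax7. The Pax6 domain measured 34.7 kb and 45.9 kb in WT mES cells and 34.5 kb and 47.1 kb in KO mES cells. In HSPCs it was 39.2 kb and 33.6 kb wide in WT against 39.5 kb and 34.4 kb in KO. On Pax6 the cell types overlapped, as they did on Pax2. The Pax9 domain measured between 12.9 and 13.2 kb in all 4 mES libraries. In HSPCs it was 9.22 kb and 8.28 kb in WT and 12.4 kb and 9.63 kb in KO, all below the mES values. Widths depend on the gap allowed, and without joining the summed H3K27me3 width of the 8 members was 206 kb larger in HSPCs than in mES cells, in place of 307 kb. Most of the joined sum came from Pax2, whose joined width differed by 206.2 kb, against 46.1 kb on Pax7 and -14.0 kb on Pax4.

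**Figure D2:**
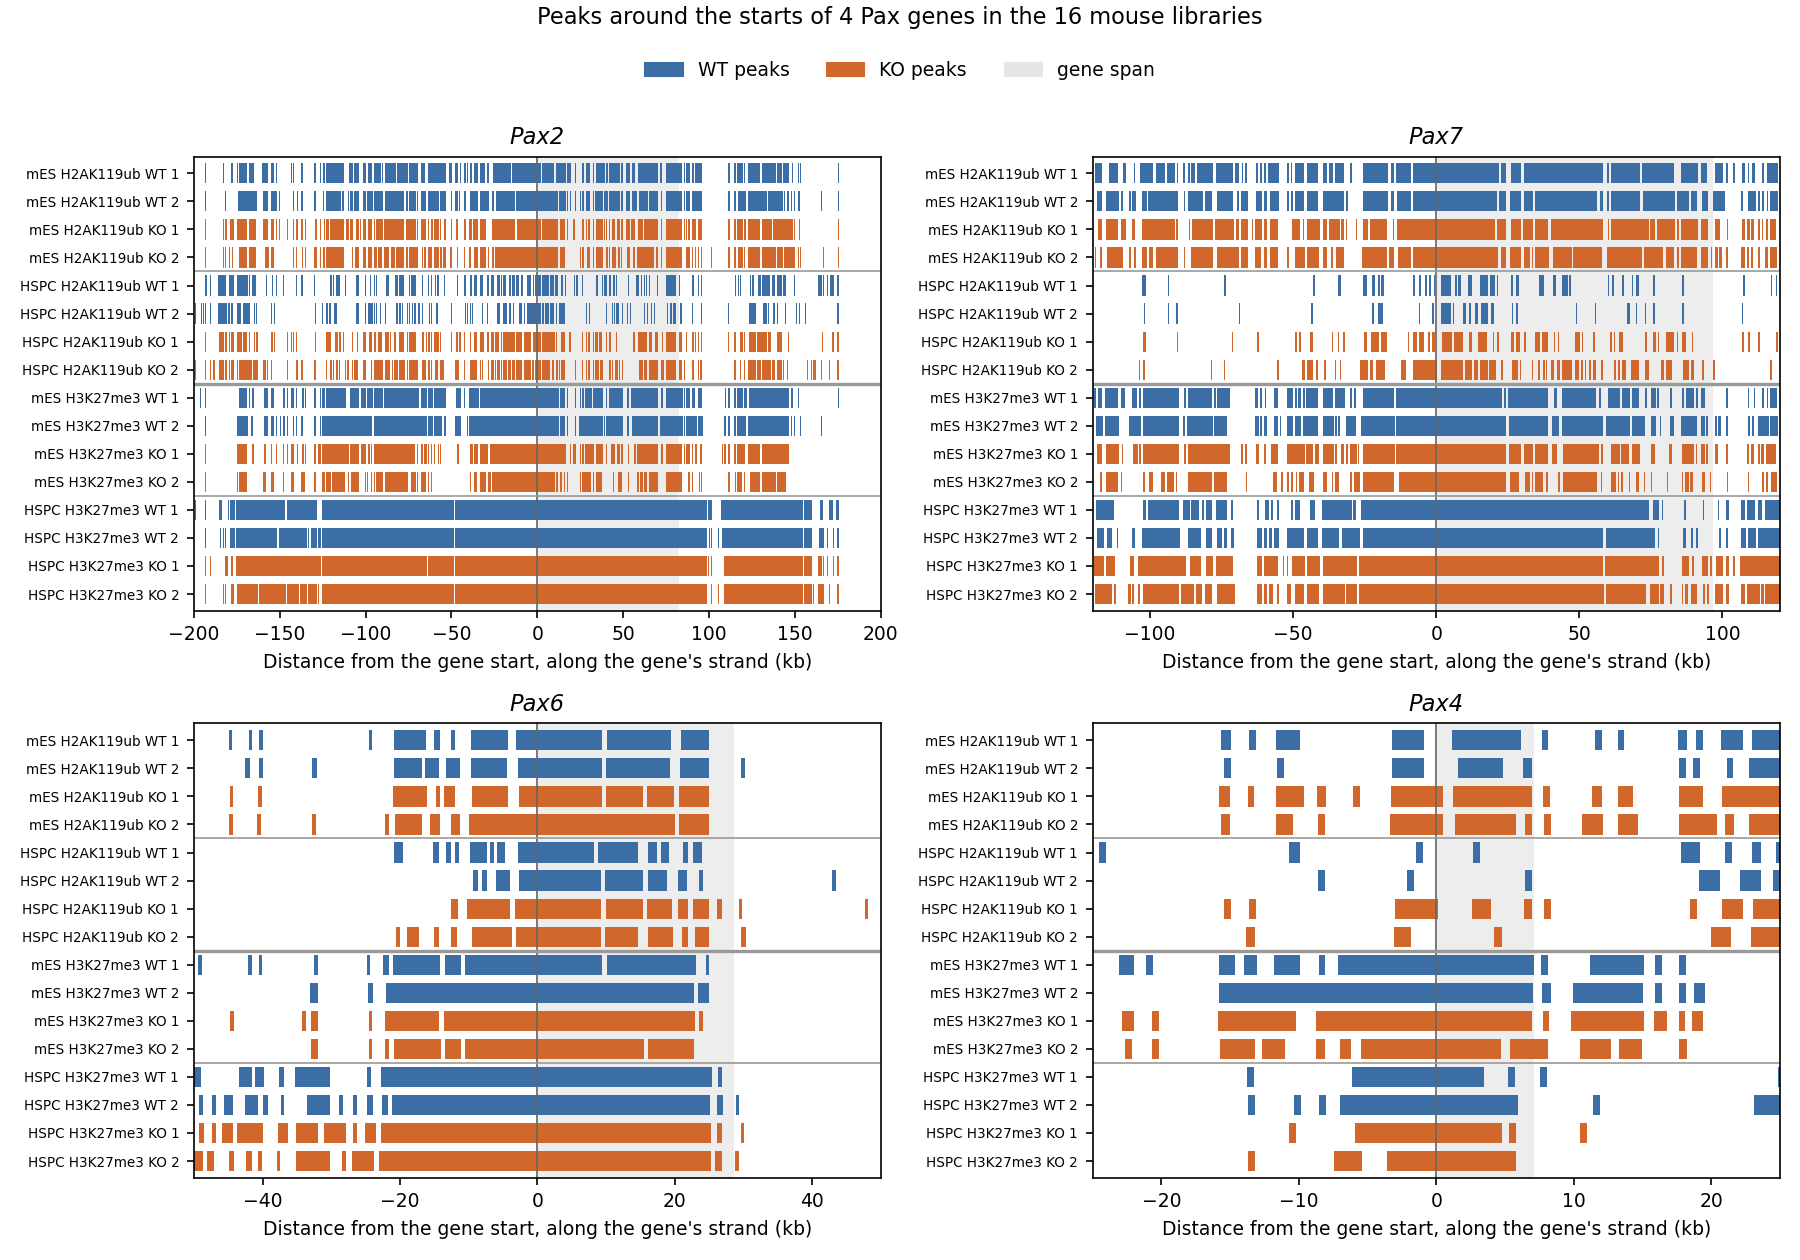
Peaks around 4 Pax genes in the 16 mouse libraries (rows, grouped by mark and cell type); the x axis is distance from the gene start in kb along the gene's strand, bars are peaks as deposited and the grey field is the gene span. The HSPC H3K27me3 rows of Pax2 are filled across the gene, and the HSPC H2AK119ub rows of Pax7 hold scattered peaks where mES rows are nearly filled.

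**Figure D3:**
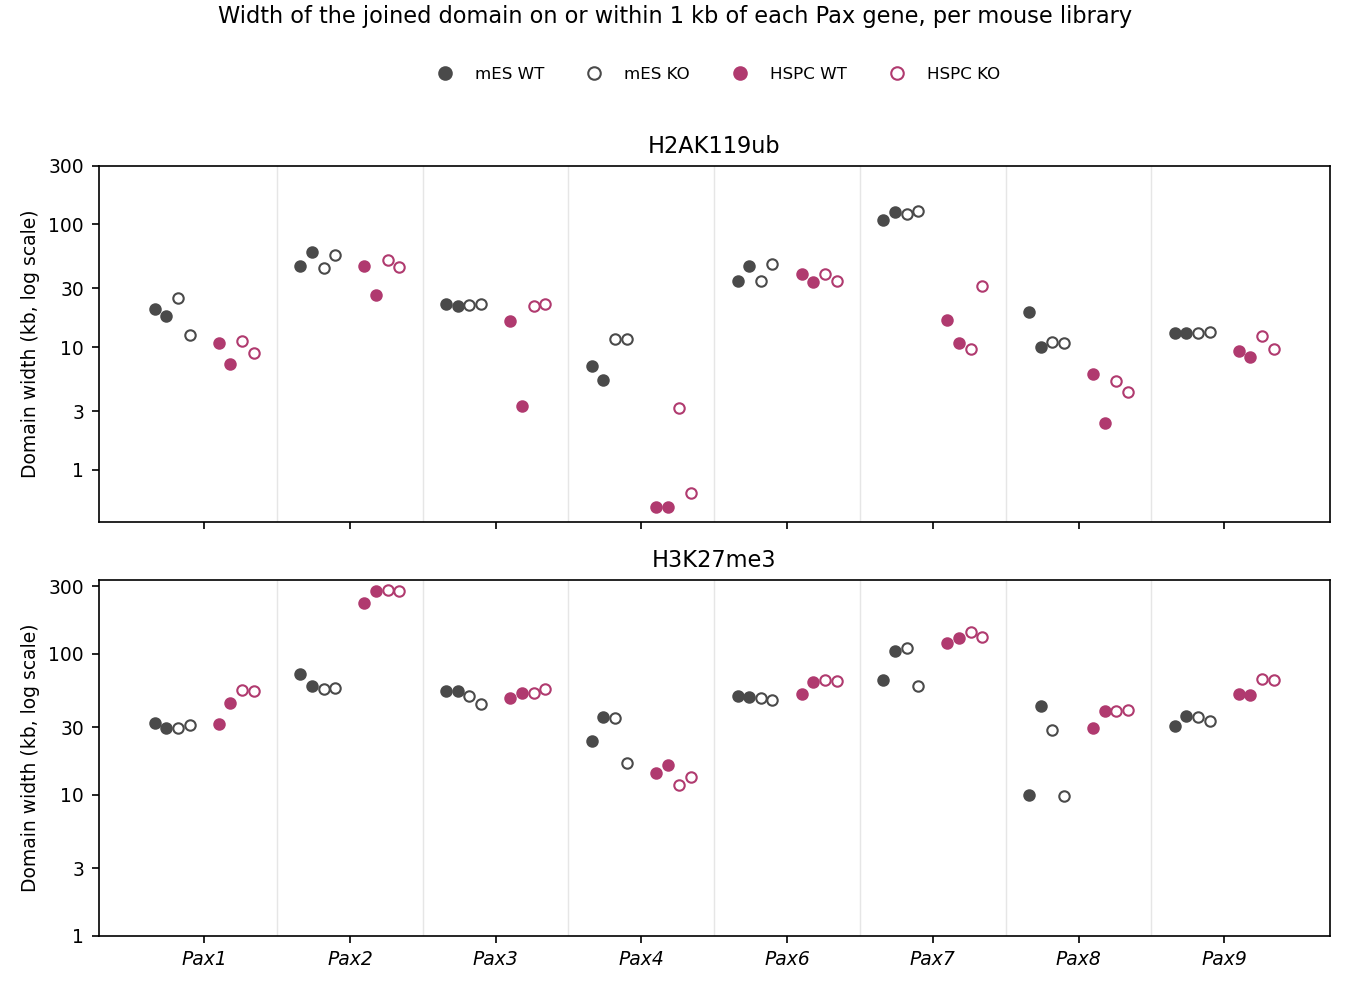
Width of the widest joined domain meeting each Pax gene or the 1 kb beside it (y axis, kb, log scale) per library, filled symbols for WT and open symbols for KO, dark grey for mES cells and purple for HSPCs. Pax2 H3K27me3 domains in HSPCs lie between 227 and 283 kb, and Pax4 H2AK119ub domains in both WT HSPC libraries are single peaks of 0.501 kb.

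Between KO and WT mES cells, which are 1 line each, H2AK119ub differed in mixed directions. The joint span percentage was 53.2% ± 0.970 (SD, n = 2) in KO and 54.0% ± 0.430 (SD, n = 2) in WT, with overlapping libraries, and over all spans it was 14.0% and 14.3%. The joint difference of -0.802 points ran from -1.49 without KO replicate 1 to -0.116 without KO replicate 2. In KO cells 3 of 8 members (Pax2, Pax3 and Pax7) were lower without overlap and 3 (Pax4, Pax6 and Pax9) were higher, where 16% of all genes were lower and 15.2% higher. KO minus WT was -7.12 points on Pax2, -1.66 on Pax3 and -1.01 on Pax7, against 18.8 on Pax4, 3.01 on Pax6 and 3.17 on Pax9. Leaving out 1 library at a time gave -2.52 to -0.792 on Pax3, -1.48 to -0.541 on Pax7, 10.997 to 26.6 on Pax4 and 0.834 to 5.18 on Pax6, and peaks of at least 1 kb turned Pax3 to 0.832. The members' median difference was 2.64 points and that of all genes 0. The Pax4 promoter separated by genotype, at 4.40% and 6.00% covered in WT and 76.2% and 73.8% in KO. The share of all promoters that separated was not computed for this comparison. All other member promoters were at or above 99.9% in all 4 libraries. With 2 libraries a group the exact test cannot go below p = 0.333, and its adjusted p was 1 for each member. limma called 0 of 8 members (adjusted p from 0.397 to 0.879, with 1 member at an unadjusted p under 0.05), against 0.0175% of genes lower and 0.0233% higher.

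For H3K27me3 in mES cells the joint value was 55.6% ± 9.07 (SD, n = 2) in KO and 67.4% ± 6.14 (SD, n = 2) in WT, with each KO library below each WT library, and over all spans it was 9.21% and 10.3%. The difference of -11.9 points was -5.46 without KO replicate 2 and -18.3 without KO replicate 1, and -7.54 without WT replicate 2. Pax2 (-18.3 points), Pax3 (-22.7) and Pax4 (-4.64) were lower without overlap and no member was higher, where 22.1% of all genes were lower and 5.53% higher. Without KO replicate 2 the differences on Pax2 and Pax4 were -10.2 and -0.655. The other 5 members overlapped, and the median difference was -3.74 points over the members and 0 over all genes. Divided by the share over all spans in the same library, the joint value was 6.69 and 6.40 in WT and 5.82 and 6.31 in KO, and these did not overlap either. The exact test gave an adjusted p of 1 for each member. limma called 0 of 8 members (adjusted p from 0.343 to 1, none at an unadjusted p under 0.05), against 6.41% of genes lower and 0.76% higher.

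In HSPCs the KO libraries had more H2AK119ub on the Pax genes. The joint value was 33.2% ± 1.82 (SD, n = 2) in KO and 20.8% ± 4.92 (SD, n = 2) in WT, whereas over all spans it was 10.7% and 9.97%. In KO 7 of 8 members were higher without overlap and none was lower, where 17.9% of all genes were higher and 9.9% lower. Pax8 was the exception, since WT replicate 1 (17.4%) lay between the KO libraries (17.5% and 16.7%). The difference was 22.1 points on Pax7, 15.8 on Pax2, 12.8 on Pax4, 12.4 on Pax1, 12.2 on Pax9, 8.70 on Pax6 and 4.56 on Pax3. Single libraries weighed on some of these, since Pax4 differed by 2.08 points without KO replicate 1, Pax1 by 5.14 without WT replicate 2 and Pax6 by 4.92 without KO replicate 1. The median difference was 12.3 points over the members and 0 over all genes. Without the short WT replicate 2 list the joint difference was 8.92 points in place of 12.4.

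At the Pax3 promoter, H2AK119ub in HSPCs covered 38.1% and 0% in WT and 100% and 100% in KO. At the Pax7 promoter it covered 25.04% and 5.25% in WT and 32.7% and 65.6% in KO. These were the 2 members of 8 whose promoter windows at the GENCODE start separated by genotype. That share is to be read against 18.3% of all promoters higher and 5.32% lower in KO. The RefSeq window of Pax1, which lies outside its GENCODE promoter window, also separated, and no share over all RefSeq windows was computed. Pax4 was touched in 2 libraries only, at 1.499% in the first WT library and 57.8% in the first KO library. Pax2 and Pax6 promoters were fully covered throughout. The 10 kb upstream of the start, looked at after the other values were seen, were covered over 62.7% and 36.2% on Pax3 in WT and 86.1% and 79.0% in KO, although under 8% of the gene itself was. On Pax7 this stretch stood at 31.2% and 10.0% in WT and 52.5% and 79.8% in KO. All 8 of 8 members were higher in KO without overlap there, where 17.4% of all genes were higher and 10.5% lower. On Pax2, Pax3, Pax6 and Pax7 the same stretch was wholly under H3K27me3 in all 8 mouse libraries of that mark. Relative to the share over all spans, the joint value was 2.22 and 1.93 in WT against 3.04 and 3.15 in KO. The exact test gave an adjusted p of 1 for each member, and limma called 0 of 8 (adjusted p from 0.711 to 0.815, with 3 members at an unadjusted p under 0.05) and 0% of all genes in either direction.

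H3K27me3 in HSPCs was higher in KO by a smaller amount. The joint value was 75.2% ± 0.553 (SD, n = 2) in KO and 69.6% ± 0.144 (SD, n = 2) in WT, and over all spans it was 8.54% and 8.39%. Both KO lists held more peaks (100838 and 98313) than both WT lists (85121 and 85694). They covered 177 and 163 Mb of autosomes in KO and 164 and 166 Mb in WT. Of the 8 members 6 were higher in KO without overlap and none was lower, where 12.4% of all genes were higher and 19.4% lower. The largest difference was 13.7 points on Pax3, followed by 6.38 on Pax9, 5.22 on Pax1, 4.85 on Pax7, 3.09 on Pax8 and 0.625 on Pax6. Without KO replicate 1 Pax1 differed by 1.97 points, and without KO replicate 2 Pax6 differed by 0.221. Pax2 was at 100% in all 4 libraries and Pax4 overlapped. The members' median difference was 5.03 points and that of all genes 0. Domains were wider in KO without overlap on 6 of 8 members and narrower on Pax4, where 11.1% of all genes had wider and 20.2% narrower domains. On Pax9, for instance, they measured 51.9 kb and 50.6 kb in WT and 66.0 kb and 65.6 kb in KO. With no joining of peaks the summed width of the 8 members differed by 3.97 kb between the genotypes, in place of 83.3 kb. The exact test gave an adjusted p of 1 for each member, and limma called 0 of 8 (adjusted p from 0.123 to 1, with 2 members at an unadjusted p under 0.05), against 0.461% of genes lower and 0.362% higher.

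In K562 cells the PAX genes differed widely in H2AK119ub before any comparison. In siControl libraries PAX7 stood at 56.9% and 62.7%, PAX4 at 44.5% and 53.3% and PAX2 at 33.0% and 31.7%. PAX8 stood at 17.1% and 16.7% and PAX6 at 8.57% and 5.44%. PAX1 (3.91% and 0%), PAX9 (0% and 2.30%) and PAX3 (0% in both) were nearly bare. The human genes lie at chr1:18630846-18748866 for PAX7, chr7:127610292-127618142 for PAX4, chr10:100735396-100829944 for PAX2, chr2:113215997-113278921 for PAX8 and chr11:31784779-31817961 for PAX6, and at chr20:21705659-21718481 for PAX1, chr14:36657568-36679362 for PAX9 and chr2:222199887-222298998 for PAX3 (hg38). K562 is an aneuploid line, and copy number was not analysed here.

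After siMBD6 the PAX7 values were 75.7% and 79.1%, those of PAX4 69.7% and 59.6% and those of PAX2 44.4% and 51.1%. PAX8 stood at 25.2% and 27.8% and PAX6 at 15.5% and 18.1%, above both control libraries. PAX3 stood at 1.23% and 0.505%. Without overlap 6 of 8 genes were higher and none was lower, PAX1 and PAX9 overlapping, where 35.4% of all genes were higher and 1.31% lower. The members' median difference was 9.70 points and that of all genes 0.361. The joint value was 36.9% ± 1.85 (SD, n = 2) after siMBD6 and 26.3% ± 0.787 (SD, n = 2) after siControl, a ratio of 1.40, and over all spans it was 8.63% and 6.38%, a ratio of 1.35. The ratio for the PAX genes was thus close to that of the whole lists, and divided by the share over all spans the joint value was 4.04 and 4.21 after siControl and 4.25 and 4.29 after siMBD6.

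The PAX6 promoter was covered over 46.5% and 49.7% after siControl and 91.6% and 97.9% after siMBD6, and the PAX7 promoter over 32.6% and 29.9% after siControl and 61.0% and 52.3% after siMBD6. PAX3 and PAX4 promoters also separated, which made 4 of 8 higher, against 13.7% of all promoters higher and 2.27% lower. The promoters of PAX1 and PAX2 overlapped. The PAX8 promoter was fully covered in all 4 libraries and that of PAX9 was bare in all 4. The exact test could not go below p = 0.333 (lowest adjusted p 0.908), and limma called 0 of 8 members (adjusted p from 0.153 to 0.485, with 5 members at an unadjusted p under 0.05) and 0% of all genes in either direction.

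**Figure D4:**
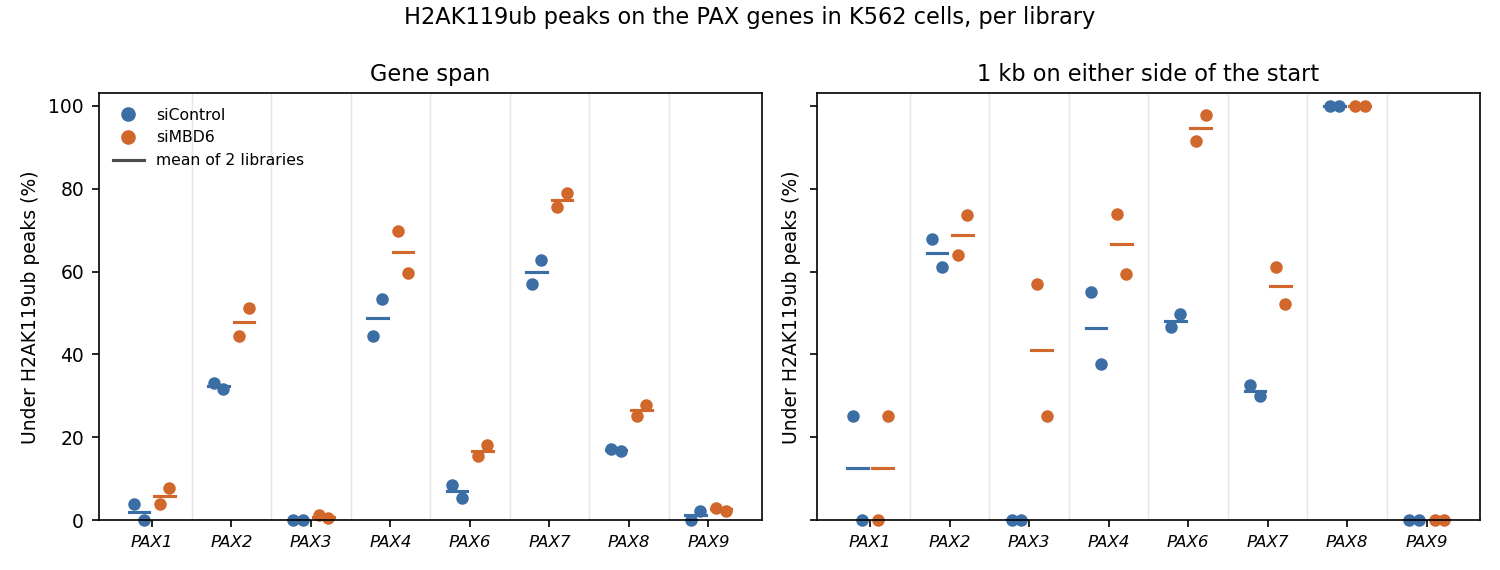
Percent under H2AK119ub peaks (y axis) of the span (left) and of the window 1 kb to either side of the start (right) for the 8 PAX genes (x axis) in 2 siControl and 2 siMBD6 K562 libraries; points are libraries and short lines are means of 2. PAX7, PAX4 and PAX2 spans lie above the others, and the PAX8 promoter is at 100% and the PAX9 promoter at 0% in all 4.

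CpG content varied widely among the members, as background for their promoters. In the window of 1 kb to either side of the mouse start, Pax2 held 127 CpGs, Pax7 109, Pax6 92, Pax3 87, Pax9 86, Pax1 61, Pax8 40 and Pax4 11, where the median gene held 64. The RefSeq starts of Pax1 and Pax9 lie 3069 and 3704 bases downstream of the GENCODE starts used here, outside this window. Pax4 thus ranked low, at the 11.9 percentile of all genes. Its H3K27me3 promoter percentage was 100% in all 8 libraries, as for the CpG-rich members. In the human genome PAX4 again held the fewest, with 7 CpGs against a median of 91, and PAX1 the most, with 138, although PAX1 was among the least covered genes in K562 cells.

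Among all other autosomal protein-coding genes, the span percentages over the 16 mouse libraries closest to the mean of the 8 Pax genes were those of Tbx5 (mean absolute difference of 5.42 percentage points), 9530053A07Rik (5.89 points) and Ebf3 (6.34 points). Tbx5 and Ebf3 encode developmental transcription factors.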

How the data were processed

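CUT&Tag peak lists for 20 libraries in 10 groups of 2 were taken as deposited. Per the labels and methods, reads were trimmed by the authors (Trimmomatic 0.39) and mapped to mm10 or hg38, and to a Drosophila genome for spike-in DNA (Bowtie2 2.4.1). They marked duplicates with Picard and called broad peaks with MACS2. HOMER 4.9 is also named in the submitters' processing notes. Each file holds chromosome, start and end per peak from the authors, with no score, count or signal value, and 30.4% to 41.4% of peaks per list were exactly 0.501 kb wide. Spike-in scaling does not show in positions, and depth is unknown.

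Covered lengths were computed with numpy 2.4.6 and pandas 2.3.3 (Python 3.11.15) against GENCODE vM21 (mm10) and v44 (hg38) gene models, and limma 3.58.1 was run in R 4.3.3 with trend and robust settings as an alternative. Figures were drawn with matplotlib 3.10.9. Separation means that all libraries of one group lay above all of the other. Exact two-sided permutation tests used all 6 arrangements of 4 libraries or, with genotype as stratum, 36 arrangements of 8, with Benjamini-Hochberg adjustment over all genes. The labels do not say whether libraries of a group came from separate cultures or animals, so p-values measure the spread between libraries, which may be technical. Covered-length code and limma calls were tested on simulated data. The members and gene lists were chosen with earlier results of these data known. One list of other genes is not reported here. Named genes were the 8 members, any gene lying whole in a member's domain and the 3 genes of nearest mean profile. Deviations of same-numbered libraries had correlations of 0.0213, -0.244, -0.00533, 0.00991 and 0.0404 for mES H2AK119ub, mES H3K27me3, HSPC H2AK119ub, HSPC H3K27me3 and K562. In mES H3K27me3 same-numbered libraries thus tended to deviate in opposite directions. The main comparisons were unpaired. Alternatives were peaks of at least 1 kb, lists of equal peak number, the mean of the members' percentages, spans widened by 5 kb, division by the share over all spans, other promoter windows, other joining gaps, leaving out each library and a replicate block.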

Additional observations from a re-analysis of the deposited data

Results flagged for a closer look

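For 3 of 8 genes and H2AK119ub, KO libraries lay below WT libraries without overlap in mES cells and above them in HSPCs, as did 3.53% of all genes. No member passed a test in either cell type, and in mES cells each genotype is 1 line. On Pax2, KO minus WT was -7.12 percentage points of span in mES cells and 15.8 in HSPCs. On Pax3 it was -1.66 and 4.56 points, and on Pax7 -1.01 and 22.1 points. For H3K27me3 the same was seen on 1 of 8 genes, Pax3, and on 3.10% of all genes, with -22.7 points in mES cells and 13.7 in HSPCs. The difference between cell types was not tested for any of them. The mES values of Pax3 and Pax7 for H2AK119ub are small, and 1 of them changes sign with peaks of at least 1 kb and the other after division by the share over all spans.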

How the results depend on the processing

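Of the alternatives for the joint span percentage of the 8 genes, 94 values moved by less than the spread between replicates and 8 by more. For single genes 627 moved by less, 68 by more and 9 were counted as changing sign, all on members without overlap in the main setting. Sign changes on members that overlapped were not among these 9. With 1 library left out, KO minus WT ran from -2.24 to 8.12 on Pax1 in mES H2AK119ub. On Pax4 in HSPC H3K27me3 it ran from -5.87 to 22.4, and on Pax8 in HSPC H2AK119ub from -0.343 to 11.9. In mES H2AK119ub the joint difference between KO and WT was 2.55 as a mean of the members' percentages and 0.248 after division by the share over all spans, against -0.802. The same division gave 4.34 for HSPC H3K27me3, 1.10 for K562, -14.7 and 20.6 for HSPCs against mES cells (H2AK119ub and H3K27me3), and -30.2 and -56.2 for H2AK119ub against H3K27me3 in mES cells and HSPCs. Division also reversed Pax7 in mES H2AK119ub (0.726), Pax4 in mES H3K27me3 (7.60), Pax6 in HSPC H3K27me3 (-0.918), PAX4 and PAX7 in K562 (-1.09 and -3.04), Pax6 between cell types for H2AK119ub (14.6) and Pax7 between marks in mES cells (-14.2). Peaks of at least 1 kb reversed Pax3 in mES H2AK119ub (0.832), and spans widened by 5 kb reversed Pax4 in mES H3K27me3 (2.07). The cause of these reversals was not tested. The division scales each library by its share over all spans and does not bring the lists to an equal number of peaks.

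With the replicate block, which takes same-numbered libraries as pairs, the joint differences were -0.802, -11.9, 12.4, 5.58 and 10.5 points for mES H2AK119ub, mES H3K27me3, HSPC H2AK119ub, HSPC H3K27me3 and K562, as without it, and the members that moved one way in both pairs were 3 lower and 4 higher, 3 lower, 8 higher, 6 higher and 6 higher, where of all genes 21.1% were lower and 21.2% higher, 23.6% lower, 23.9% higher, 15.59% higher and 39.5% higher. Crossing the pairs in mES H3K27me3, chosen after seeing the data, gave 6 lower in place of 3, against 29.5% of all genes. At promoters alone, H3K27me3 could show no difference for any member, because all were already fully covered. The number of members that separated by genotype in mES H3K27me3 depended on which library was left out. Peaks of at least 1 kb left fewer members higher in HSPC H3K27me3 than the 6 of the main setting. Positions without counts limit every statement to where a mark was called, not how strong it was. Leaving out one mES library at a time moved the joint H3K27me3 difference between KO and WT from -18.3 to -5.46. Over the same settings the difference ran from -8.59 to 8.10 points on Pax8 and from -5.58 to 3.66 on Pax9. Joining peaks up to 5 kb apart turned the difference in summed domain width from 6.86 to -12.1 kb in mES H2AK119ub and from -71.8 to 119.2 kb between the marks in mES cells.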
